A study of Homo sapiens with 12 samples.

Results

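The kallikrein related peptidases are secreted serine proteases made as inactive zymogens from a run of neighbouring genes on the long arm of chromosome 19. Each zymogen is switched on by clipping of a short propeptide, often by another member of the family, and the active enzymes cut desmosome proteins, growth factor binding proteins and the protease-activated receptors. In skin they act as a cascade held back by inhibitors such as LEKTI, the product of SPINK5, and several of them are often raised in carcinomas, pancreatic ones included.

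Values are given here for 7 of the 15 KLK genes of the cluster (KLK5, KLK6, KLK7, KLK8, KLK10, KLK11 and KLK13), which have 14 of the 47228 probes on the array. All probes carrying one of these gene names were taken. The genes were chosen by a working list that was drawn up with the response of these same arrays to loss of FAK known, that of KLK6 above all, so every difference between a FAK hairpin and the control hairpin is a description of the members and was not tested for them. The list states no threshold, so there is no value just inside or outside it.

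The study hybridised RNA of 2 cell lines from human pancreatic ductal adenocarcinoma, MIA PaCa-2 and Capan-1, to Illumina HumanHT-12 v4 BeadChips, to see how silencing of focal adhesion kinase (FAK, encoded by PTK2) alters gene expression. All 12 arrays came from cells carrying a doxycycline-inducible hairpin from the Tet-pLKO-puro vector, either the scrambled control shCtrl or 1 of 2 hairpins against FAK, sh1209 and sh1319 (written shFAK1319 for Capan-1). Doxycycline (50 ng/ml, over 96 h) was given to every group, the controls too, and puromycin kept the hairpin vectors, at 3.5 ug/ml in MIA PaCa-2 cells and at 1.5 ug/ml in Capan-1 cells, so an effect of drug or vector that all groups share cannot be seen. Each of the 6 groups had 2 arrays, and since nothing says that these came from separate cultures, the p-values measure only the spread between these arrays, which may be technical.

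Deposited intensities ran from a median of 87.7 to 97.0 per array, and a probe was called detected at a detection p under 0.05. Intensities were corrected for background, quantile-normalized and put on the log2 scale, and limma was run on the 24207 probes that 2 or more arrays detected, a probe being called at an adjusted p under 0.05. PTK2 (probe 450253) fell with both hairpins, sh1209 first, by log2 changes of -2.24 and -2.48 in MIA PaCa-2 (limma, adjusted p = 1.5e-07 and 5.2e-08) and of -0.61 and -1.78 in Capan-1 (adjusted p = 0.0036 and 5.9e-06). With arrays scaled to a common median in place of quantiles, the fall with sh1209 in Capan-1 was not called (adjusted p = 0.23). The other PTK2 probe, 2680750, was dim and was not called in any of these 4 comparisons. Of the epithelial markers, KRT8 and KRT18 were detected in all 12 arrays, whereas CDH1 was detected in 0 of 6 MIA PaCa-2 arrays and in 6 of 6 Capan-1 arrays. In MIA PaCa-2 KRT19 was detected in 4 of 6 arrays and KRT7 in 2. EPCAM was detected there in 2, 0 and 0 arrays by its probes and MUC1 in 6, 1 and 0. All of these probes were detected in 6 of 6 Capan-1 arrays. MIA PaCa-2 thus lacked signal of CDH1, a defining epithelial marker, but had signal of several others. Of the mesenchymal markers, VIM was detected in 6 of 6 MIA PaCa-2 arrays by both its probes and in 6 of 6 Capan-1 arrays by 1 of them, CDH2 in 0 of 6 MIA PaCa-2 and 6 of 6 Capan-1 arrays, and ZEB1 on none. Of markers of other cell types, INS (islet) and CPA1 (acinar) were not detected on any array, PRSS1 (acinar) was detected in 6 of 6 Capan-1 arrays and 0 of 6 MIA PaCa-2 arrays, PECAM1 (endothelial) in 2 MIA PaCa-2 and 5 Capan-1 arrays, and PTPRC (leukocyte) on 1 array by 1 of its 4 probes. In these bulk cultures fewer cells that make a transcript and less of it per cell cannot be told apart.

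KLK5, KLK6 and KLK7 lie side by side in the cluster, and 6 of the 7 members have a RefSeq promoter window (GRCh38.p14), 11 windows in all. The 250 bases before the start of KLK6 (chr19:50969592-50969841, minus strand), of KLK7 (its outermost start, chr19:50984065-50984314, minus strand) and of KLK5 (chr19:50953039-50953288, minus strand) are shown because KLK6 and KLK7 varied together over the arrays, as given further on, while KLK5 stayed near background. Capitals mark matches, on either strand, to the GC box GGGCGG, which reads CCGCCC from the other strand, in KLK6 and KLK7, and to the TEAD core GGAATG, which reads CATTCC from the other strand, in KLK5.

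KLK6: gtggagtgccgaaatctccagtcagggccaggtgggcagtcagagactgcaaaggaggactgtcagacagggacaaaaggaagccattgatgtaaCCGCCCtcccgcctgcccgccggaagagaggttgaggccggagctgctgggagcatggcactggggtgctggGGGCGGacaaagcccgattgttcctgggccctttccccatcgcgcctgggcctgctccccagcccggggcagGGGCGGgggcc

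KLK7: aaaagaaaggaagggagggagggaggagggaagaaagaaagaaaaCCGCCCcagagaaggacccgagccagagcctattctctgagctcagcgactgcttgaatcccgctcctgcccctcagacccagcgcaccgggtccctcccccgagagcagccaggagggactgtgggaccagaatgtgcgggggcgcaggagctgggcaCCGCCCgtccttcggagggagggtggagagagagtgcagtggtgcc

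KLK5: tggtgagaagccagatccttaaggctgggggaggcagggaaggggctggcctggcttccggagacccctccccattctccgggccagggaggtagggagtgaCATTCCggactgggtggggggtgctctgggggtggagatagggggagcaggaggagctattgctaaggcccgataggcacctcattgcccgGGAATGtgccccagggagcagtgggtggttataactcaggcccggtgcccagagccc

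The KLK6 window held 3 GC boxes and the KLK7 window 2, and the KLK5 window held 2 TEAD cores. GC boxes occurred in 7 of the 11 member windows, against 42.6% of 35116 promoter windows of the same length, and the TEAD core in 1 of 11, against 11.9%. By gene, GC boxes were in every window of KLK6, KLK7 and KLK13, in 1 window of KLK11, and in no window of KLK5 or KLK10. Of these genes KLK13 was not detected on any array and KLK5 stayed near background, while the others had a tested probe. Whether GC boxes go with detection was not tested. The AP-1 core TGANTCA, which has the same form on both strands, was in 0 of 11 windows (6.57% of all), and the TATA box TATAAA, which reads TTTATA from the other strand, also in 0 of 11 (10.7% of all). Windows of 1 gene can overlap, so they are not independent, and a match is a stretch of letters rather than a shown binding site.

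Of the 14 probes, 6 were detected in at least 2 arrays and were tested, 2 each for KLK6 and KLK10 and 1 each for KLK7 and KLK11. The other 8 probes, among them every probe of KLK5, KLK8 and KLK13, were not tested. Of these 8, 6 were not detected on any array.

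**Figure D1:**
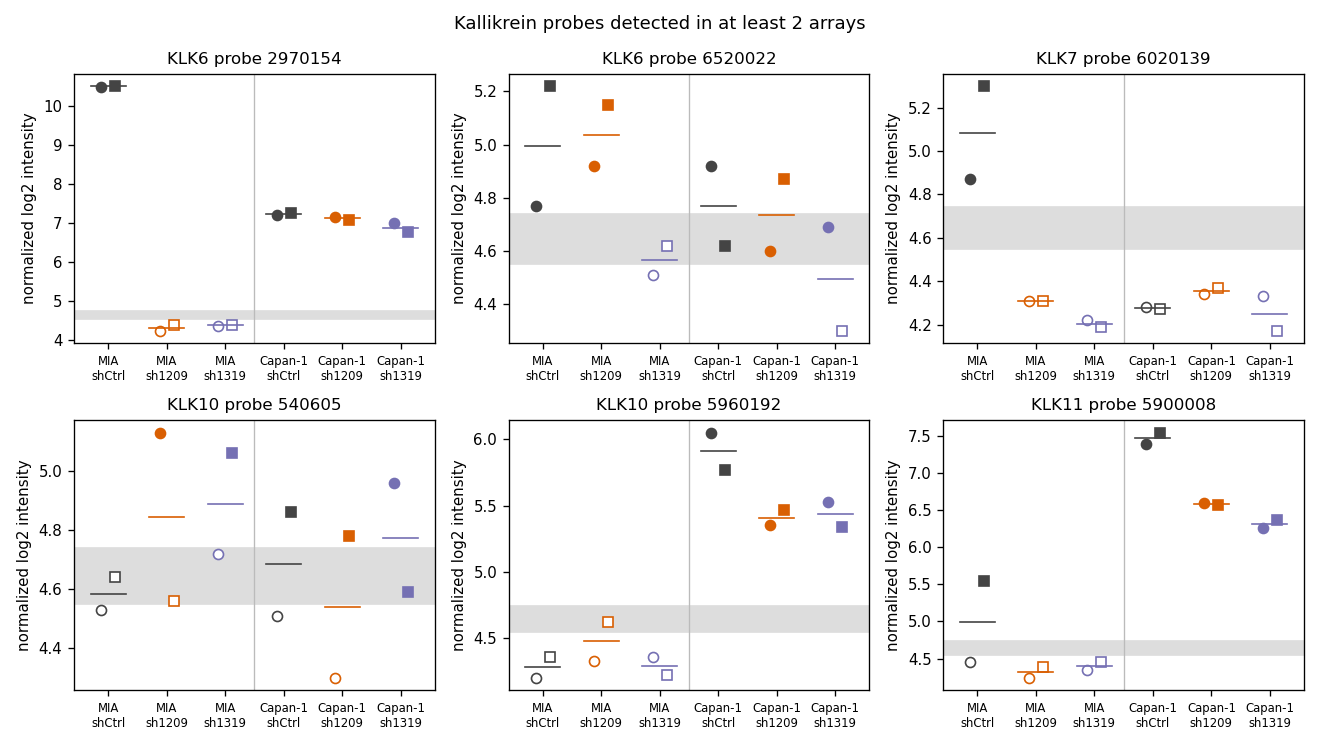
Normalized log2 intensity of the 6 tested kallikrein probes in each of the 12 arrays, with 2 arrays per group (circle, replicate 1; square, replicate 2) and a line at their mean. Filled symbols were detected at p under 0.05, open symbols were not, and the grey band spans the lowest detected log2 signal of the arrays, 4.55 to 4.74; the vertical scale differs between panels. KLK6 probe 2970154 stood at 10.51 in MIA PaCa-2 with shCtrl and below the band with either FAK hairpin.

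KLK6, also called neurosin, is a trypsin-like protease that cuts extracellular matrix proteins and can activate protease-activated receptors. In MIA PaCa-2 with shCtrl its probe 2970154 read 1606.4 and 1473.3. With sh1209 it read 80.6 and 92.3 and with sh1319 89.7 and 95.3, and none of these 4 arrays detected it. In Capan-1 all 6 arrays detected it, at 205.2 and 228.0 with shCtrl, 214.9 and 263.2 with sh1209, and 207.7 and 226.0 with sh1319. In these raw intensities shCtrl and FAK hairpins did not overlap in MIA PaCa-2 and did in Capan-1. On the normalized log2 scale they did not overlap in Capan-1 either, at 7.20 and 7.26 with shCtrl, 7.16 and 7.09 with sh1209, and 7.00 and 6.76 with sh1319.

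On the normalized log2 scale KLK6 stood at 10.51 ± 0.01 in MIA PaCa-2 with shCtrl, 4.30 ± 0.11 with sh1209 and 4.38 ± 0.03 with sh1319 (SD, n = 2 arrays each). Compared to shCtrl, these are differences of -6.21 and -6.13 (SE 0.12 each). Measured against the lowest signal still detected on the arrays that missed KLK6, the drop was of at least 57.5-fold for sh1209 and 56.0-fold for sh1319. These folds hold only for the background correction used here. Over 19 alternative ways of processing, the log2 difference ran from -6.28 to -4.13 for sh1209 and from -6.15 to -4.08 for sh1319. In Capan-1 the levels were 7.23 ± 0.05, 7.13 ± 0.05 and 6.88 ± 0.17, so the differences from shCtrl were -0.10 and -0.35 (SE 0.12). The order of the groups was MIA PaCa-2 with shCtrl, then the 3 Capan-1 groups, which lay within 0.35 of each other, then both MIA PaCa-2 FAK hairpin groups, which were not detected. Without FAK hairpins, KLK6 was 9.72-fold lower in Capan-1 than in MIA PaCa-2 (log2 difference -3.28).

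The second KLK6 probe, 6520022, did not show this pattern. It was dim, between 92.0 and 110.1, and was detected in 9 of 12 arrays. In MIA PaCa-2 its difference from shCtrl was 0.04 with sh1209 and -0.43 with sh1319 (SE 0.19), and in Capan-1 -0.03 and -0.27. The files do not say which transcripts each probe reads, and why the probes disagree was not tested.

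KLK7, a chymotrypsin-like protease known for cutting desmosome proteins in the outer skin, was detected by probe 6020139 in a single group. The probe read 97.4 and 106.5 in MIA PaCa-2 with shCtrl, both detected. It read 84.2 and 90.1 with sh1209, and 83.8 and 85.5 with sh1319, and none of these were detected. In Capan-1 it lay between 83.9 and 94.2 and was not detected in any of 6 arrays. The 2 shCtrl arrays of MIA PaCa-2 were thus the only ones of the 12 with KLK7 signal.

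Its normalized level was 5.08 ± 0.31 (SD, n = 2) in those arrays, and the differences from shCtrl in MIA PaCa-2 were -0.77 with sh1209 and -0.88 with sh1319 (SE 0.14). As bounds, KLK7 was at least 1.34- and 1.30-fold lower. The probe passed the filter only through the group in which it was high, so a lower value elsewhere was built into its being tested. In Capan-1 the differences were 0.08 and -0.03, between groups that were all undetected. The other KLK7 probe, 4230221, read 76.9 to 94.5 and was not detected on any array.

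**Figure D2:**
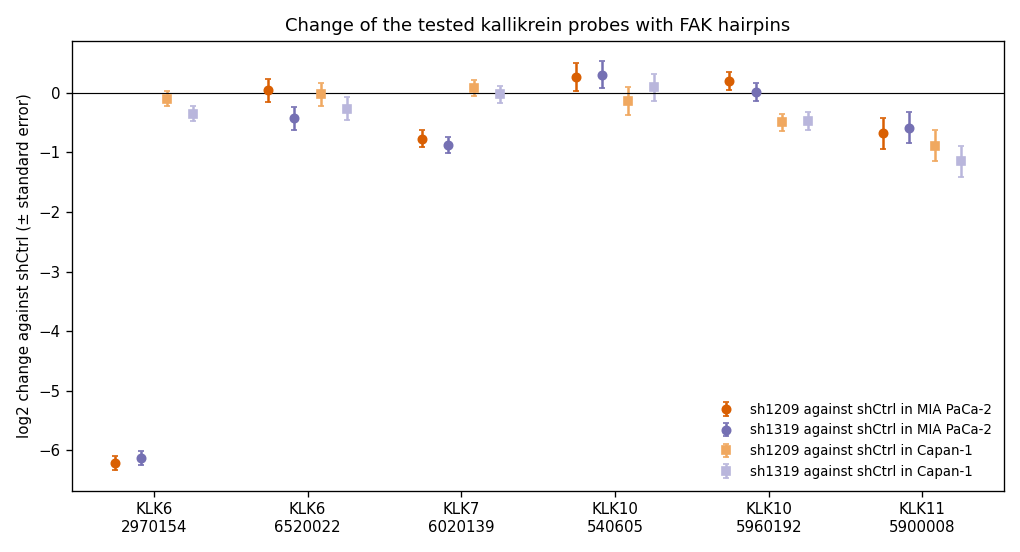
Log2 change against shCtrl of the same cell line for the 6 tested kallikrein probes, with the standard error from limma as bars (2 arrays per group); circles are MIA PaCa-2 and squares Capan-1. KLK6 probe 2970154 lay at -6.21 and -6.13 for MIA PaCa-2 and at -0.10 and -0.35 for Capan-1, whereas KLK11 lay below 0 in all 4 comparisons.

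KLK10, first known as a gene whose transcript is lost in many breast tumor lines, gave signal in every Capan-1 array by 1 of its 2 probes. In Capan-1 probe 5960192 read 132.4 and 130.0 with shCtrl, 112.3 and 134.9 with sh1209, and 122.5 and 130.3 with sh1319, and all 6 arrays detected it. In MIA PaCa-2 it lay between 80.0 and 98.0 and was not detected. The raw intensities of the Capan-1 groups overlapped, whereas on the normalized scale both shCtrl arrays lay above all 4 FAK hairpin arrays.

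The normalized levels in Capan-1 were 5.91 ± 0.19 with shCtrl, 5.41 ± 0.08 with sh1209 and 5.44 ± 0.13 with sh1319 (SD, n = 2). The differences from shCtrl were -0.50 and -0.48 (SE 0.15). In MIA PaCa-2 they were 0.19 and 0.01, between undetected groups. With shCtrl KLK10 was at least 2.30-fold higher in Capan-1. The second KLK10 probe, 540605, lay between 85.2 and 109.6 and was detected in 6 of 12 arrays that followed neither line nor hairpin.

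KLK11, a trypsin-like member also known as hippostasin, was detected in Capan-1 and was lower there with both FAK hairpins. Probe 5900008 read 224.8 and 261.4 with shCtrl, 168.6 and 206.1 with sh1209, and 154.9 and 189.9 with sh1319. Both shCtrl arrays lay above all 4 FAK hairpin arrays, and all 6 were detected. In MIA PaCa-2 it was detected on 1 array, the second with shCtrl, at 111.4, against 90.0 on the first and 81.2 to 96.6 on the 4 FAK hairpin arrays.

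The normalized level of KLK11 in Capan-1 was 7.46 ± 0.11 with shCtrl, 6.58 ± 0.02 with sh1209 and 6.31 ± 0.07 with sh1319 (SD, n = 2). The differences were -0.89 and -1.15 (SE 0.26), which left 54.1% and 44.9% of the shCtrl level. PTK2 on the same arrays was left at 65.4% and 29.2%. In MIA PaCa-2 the KLK11 differences were -0.68 and -0.59, and they rest on the 1 detected array (SD of the shCtrl pair 0.78). The other KLK11 probe, 5700136, was detected on 1 of 12 arrays.

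KLK5, the trypsin-like enzyme that starts the skin cascade by activating KLK7, was close to background throughout. Its 3 probes gave 36 readings between 76.5 and 105.2, of which 1 was detected, by probe 3170687 on the second MIA PaCa-2 array with sh1319. KLK8, also known as neuropsin, had 0 detections in 24 readings from 2 probes (78.1 to 93.9). KLK13 had 0 in 12 from 1 probe (81.2 to 96.9). A transcript below the reach of these probes would look the same.

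As a description only, since the members were selected on this response, 2 of the 6 member probes in the fit passed its call threshold with sh1209 in MIA PaCa-2 and 2 with sh1319, KLK6 2970154 and KLK7 each time, where 18.0% and 24.3% of all probes in the fit did. In Capan-1, 2 passed it with sh1209 (KLK10 5960192 and KLK11) and 1 with sh1319 (KLK11), where 16.8% and 13.7% of all did. All of these were lower than in shCtrl. The median log2 difference over the 6 probes was -0.32 and -0.51 in MIA PaCa-2, against 0.01 and -0.01 over all tested probes, and -0.12 and -0.31 in Capan-1, against -0.01 and 0.00. KLK7 and KLK10 5960192 entered the fit only through the cell line in which they had signal. Nothing is read from these counts.

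Some of these calls hung on single arrays. In Capan-1 both were lost for sh1209 without the first Capan-1 shCtrl array and without either sh1209 array. The KLK11 call alone was lost without the second Capan-1 shCtrl array, the first MIA PaCa-2 sh1209 array or the first MIA PaCa-2 sh1319 array. For sh1319 the KLK11 call was lost without either Capan-1 shCtrl array and without the first sh1319 array, and the count rose to 2 without either MIA PaCa-2 sh1209 array. In MIA PaCa-2 KLK7 was not in the fit when either shCtrl array was left out, since only those 2 arrays detected it.

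The response to FAK hairpins, taken as the mean of both, was compared between the lines. Capan-1 minus MIA PaCa-2 was 5.94 for KLK6 2970154, 0.85 for KLK7 and -0.59 for KLK10 5960192 (log2). For KLK11 it was -0.38. These values use the contrasts on which the members were selected, and KLK7 and KLK10 5960192 had signal in only 1 of the lines, so they are a description. The first 3 of them passed the call threshold of the fit, as 14.4% of all tested probes did, and nothing is read from that count. PTK2 itself fell less in Capan-1 by probe 450253 (1.17 in the same comparison), while its dim probe 2680750 gave -0.47 and was not called. The lines are thus not compared at an equal loss of PTK2.

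The comparison of sh1319 with sh1209 was not itself used to choose the members. It is, however, the difference between the sh1319 and sh1209 responses against shCtrl, and the members were chosen with the response to FAK loss known. A choice of genes that are lower with both hairpins could favour small differences between the hairpins. The limma results that follow are thus a description and not an independent test. With limma, 0 of the 6 probes were called in MIA PaCa-2, where 22.6% of all tested probes were, and 0 of 6 in Capan-1, where 11.3% were. In MIA PaCa-2, KLK6 2970154, KLK7, KLK10 5960192 and KLK11 were not detected with either FAK hairpin, and in Capan-1 KLK7 was not, so a difference between the hairpins could not have been seen for them there. Of these 12 differences, 1 had an unadjusted p under 0.05, that of the dim KLK6 probe 6520022 in MIA PaCa-2 (-0.47, 95% interval -0.89 to -0.06, limma, adjusted p = 0.1). For KLK6 2970154 the hairpins differed by 0.08 in MIA PaCa-2 (-0.18 to 0.34, limma, adjusted p = 0.73) and by -0.24 in Capan-1 (-0.51 to 0.02, adjusted p = 0.25). KLK11 differed by -0.27 in Capan-1 (-0.83 to 0.29, limma, adjusted p = 0.63), and KLK10 5960192 by 0.02 (-0.30 to 0.35, adjusted p = 0.96). The intervals leave room for differences of up to 0.83 in KLK11, so the hairpins are not shown to act alike on it.

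Averaged over the 3 hairpins, Capan-1 was compared with MIA PaCa-2, a comparison that was not itself used in the choice. Of the 6 probes, 4 were called, where 58.3% of all tested probes were. For 3 of the 4 the direction was set by the filter, so their differences are a description. KLK11 was higher in Capan-1 by 2.21 and KLK10 5960192 by 1.24 (log2), both detected in all 6 Capan-1 arrays and in 1 and 0 of the 6 MIA PaCa-2 arrays, and thus in the fit only through Capan-1. KLK7 was in the fit only through the 2 MIA PaCa-2 shCtrl arrays and was lower in Capan-1 by a small amount (-0.24). It could not be tested with the stricter filter or when either of these arrays was left out. It missed the threshold in 6 of 15 alternatives: without background correction (-0.08), with an offset of 50 (-0.11), with median scaling (-0.20), with the replicate number as a block (-0.15), and without the first Capan-1 sh1209 array (-0.23) or the second Capan-1 sh1319 array (-0.21). KLK6 2970154 was higher in Capan-1 by 0.68 (log2), which is a description too. Its mean over hairpins joins a MIA PaCa-2 group that was far above Capan-1 with 2 that were undetected. The value thus holds the response with which KLK6 was chosen, and it depends on where undetected signal is set. With an offset of 50 the difference was 0.05 and not called (limma, adjusted p = 0.36), and without background correction it was -0.14. The second probes of KLK6 and KLK10 did not pass (-0.20 and -0.11, limma, adjusted p = 0.15 and 0.52).

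Over the 12 arrays, with the mean of each line removed, KLK6 2970154 and KLK7 had a Pearson correlation of 0.94. KLK10 5960192 and KLK11 had 0.56, and KLK6 and KLK11 0.49. The 2 KLK6 probes had 0.30 and the 2 KLK10 probes -0.06. These are descriptions over arrays that share groups and a scale. The first rests on the 2 MIA PaCa-2 shCtrl arrays, which were the high ones for both genes.

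The rest of the cluster was mostly silent. Of the other 8 KLK genes, with 14 probes, 3 had a tested probe. KLK3, the prostate-specific antigen, showed the same steps as KLK6 in MIA PaCa-2. Its probe 460202 read 136.6 and 133.4 with shCtrl, 86.1 and 86.4 with sh1209, and 85.2 and 90.8 with sh1319, and only the shCtrl arrays were detected. Its log2 differences from shCtrl were -1.92 and -1.97, at least 2.96- and 2.88-fold lower, and having passed the filter through the shCtrl arrays alone it could only be lower elsewhere. Its other 2 probes, 3780491 and 5050301, were not detected on any array. KLK1, tissue kallikrein, was detected in all 6 Capan-1 arrays and no MIA PaCa-2 array, so it passed the filter only through Capan-1, where it was higher by 0.54 (log2). KLK2 was detected on 2 of 12 arrays and was not called in the 4 FAK hairpin comparisons. KLK4, KLK9, KLK12, KLK14 and KLK15 were not detected on any array.

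**Figure D3:**
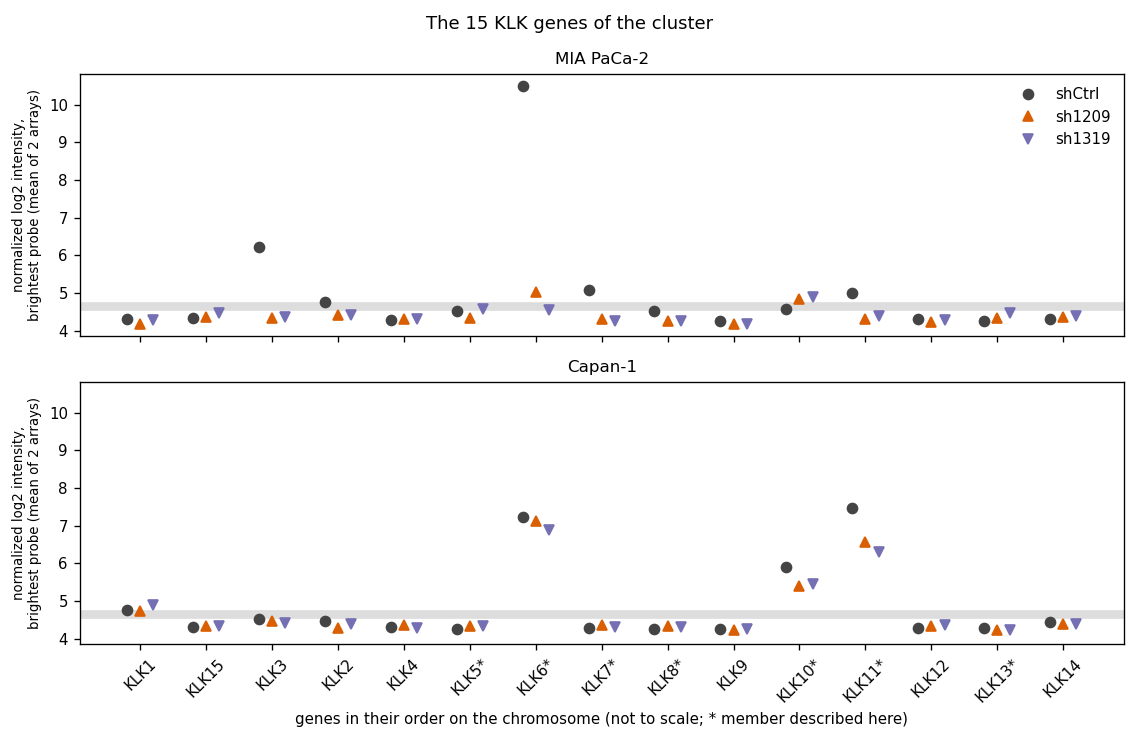
Normalized log2 intensity (mean of 2 arrays) of the 15 KLK genes in chromosome order, in MIA PaCa-2 (top) and Capan-1 (bottom), for shCtrl, sh1209 and sh1319. Each point is the probe of that gene that was brightest in that group, so the probe can change between groups. For KLK6 in MIA PaCa-2 it is 2970154 with shCtrl and the dim 6520022 with sh1209 (5.04) and sh1319 (4.56), where 2970154 stood at 4.30 and 4.38. The grey band spans the lowest detected signal of the arrays, 4.55 to 4.74, and asterisks mark the 7 genes described here; levels of different genes come from different probes and are not comparable. In MIA PaCa-2 with shCtrl KLK6 (10.51) and KLK3 (6.23) stood clear of the band, and in Capan-1 KLK6, KLK10 and KLK11 did with every hairpin.

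On one side of the cluster lie ACP4, GPR32 and CLEC11A and on the other CTU1, SIGLEC9 and SIGLEC7, and 0 of their 4 tested probes were called in any of the 4 FAK hairpin comparisons. The nearest to a change in MIA PaCa-2 was ACP4 2690369 (-0.57 and -0.56, limma, adjusted p = 0.068 and 0.061). In that line it was detected on 1 shCtrl array only (SD of the shCtrl pair 0.56). CTU1 gave 0.39 and 0.36 (limma, adjusted p = 0.097 and 0.1).

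Outside the KLK family, the genes whose pattern was most like that of KLK6 2970154, by Pearson correlation over the 12 arrays with line means removed and 1 probe for each of 19082 genes, were SFRP1 (0.997), HAPLN1 (0.996), PDLIM3 (0.995), MMP10 (0.995) and MMP1 (0.995). SFRP1 is a secreted Wnt antagonist, HAPLN1 a hyaluronan link protein, PDLIM3 an actin-associated PDZ-LIM protein, and MMP10 and MMP1 are matrix metalloproteinases. They were picked for this likeness, so their lower values after FAK hairpins follow from the choice and were not tested. In MIA PaCa-2 the log2 differences from shCtrl with sh1209 and sh1319 were -2.77 and -2.72 for SFRP1, -4.04 and -4.07 for HAPLN1, -5.04 and -5.18 for MMP1, -1.82 and -1.77 for PDLIM3 and -1.78 and -1.82 for MMP10. SFRP1, HAPLN1 and MMP10 were detected only with shCtrl, whereas PDLIM3 was detected in all 6 MIA PaCa-2 arrays. None of the 5 was detected on any Capan-1 array, so unlike KLK6 they had no Capan-1 signal to compare.

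**Figure D4:**
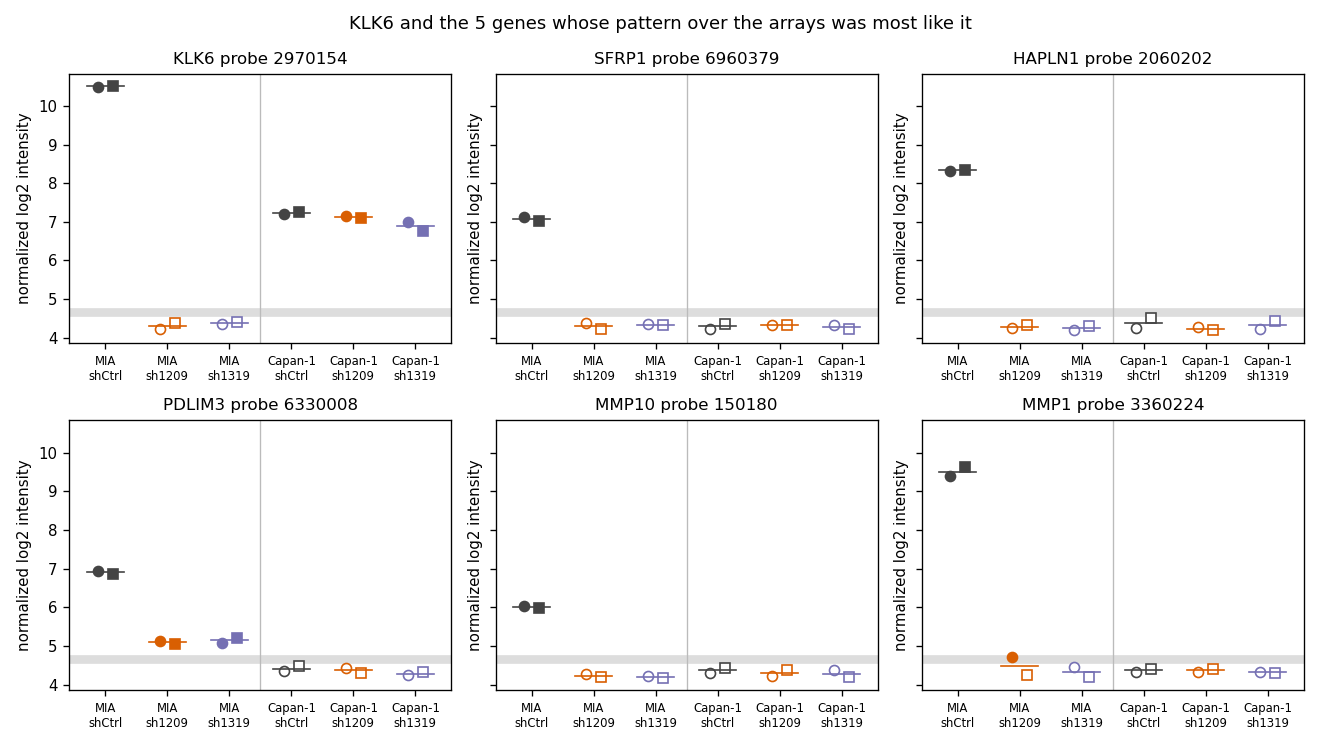
Normalized log2 intensity of KLK6 and of the 5 genes with the most similar pattern in each of the 12 arrays; filled symbols were detected, open symbols were not, lines mark the mean of 2 arrays and the grey band spans the lowest detected signal, 4.55 to 4.74. All 6 genes stood highest in MIA PaCa-2 with shCtrl, and KLK6 was the one that was also detected in Capan-1.

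For KLK10 5960192 the most similar genes were SNHG10 (Pearson correlation 0.972), PCDH7 (0.949), LOC100131866 (0.939), LOC729679 (0.934) and GSDM1, now GSDMA (0.918). They too were picked for this likeness, and their differences were not tested. In Capan-1 the log2 differences from shCtrl were -0.73 and -0.74 for SNHG10, -0.69 and -0.73 for PCDH7, a protocadherin, and -0.81 and -0.74 for LOC100131866. They were -0.47 and -0.41 for LOC729679 and -0.66 and -0.64 for GSDM1.

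Of 8 listed proteases that can activate kallikrein zymogens, 4 had a tested probe. In Capan-1 2 of 4 rose and 0 fell with either hairpin, where 16.8% and 13.7% of all tested probes were called. Their medians were 0.86 and 0.48, against -0.01 and 0.00 over all tested probes. TMPRSS2, a membrane serine protease, rose by 1.74 and 1.25 (limma, adjusted p = 6.4e-06 and 0.00014), from 162.5 and 157.2 with shCtrl to 338.8 and 500.6 with sh1209 and 279.7 and 371.9 with sh1319. PRSS8 (prostasin) rose by 1.23 and 0.72 (limma, adjusted p = 0.00024 and 0.0094), the second call being lost without the first shCtrl or first sh1319 array of Capan-1 (adjusted p = 0.084 and 0.076). In MIA PaCa-2, 0 of 4 were called with sh1209 and 1 rose with sh1319 (medians -0.01 and 0.18), PLAU (urokinase) by 0.97 (limma, adjusted p = 0.00023). There 18.0% and 24.3% of all tested probes were called.

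Of 14 listed inhibitor genes 10 were tested, with 12 probes. In Capan-1, 7 probes rose and 0 fell with sh1209, and 1 rose and 6 fell with sh1319 (medians 0.54 and -0.36), where 16.8% and 13.7% of all tested probes were called in either direction. The direct comparison of sh1319 with sh1209 in Capan-1 called 9 of the 12, all lower with sh1319, where 11.3% of all tested probes were called. Some of the 12 probes share a gene, so they are not separate results. In MIA PaCa-2, 0 rose and 1 fell with sh1209, and 1 rose and 1 fell with sh1319 (medians -0.01 and -0.03). There 18.0% and 24.3% of all tested probes were called.

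SERPINA3, antichymotrypsin, fell in MIA PaCa-2 from 8394.2 and 7379.9 with shCtrl to 732.7 and 1005.9 with sh1209 and 1536.3 and 1761.5 with sh1319. Its log2 changes there were -3.08 and -2.31 (limma, adjusted p = 1.6e-08 and 1.1e-07). In Capan-1 it rose by 2.79 with sh1209 and fell by 0.65 with sh1319 (limma, adjusted p = 3.7e-08 and 0.0037). PI3, the elastase inhibitor elafin, rose by 1.74 with sh1209 and fell by 0.90 with sh1319 in Capan-1 (limma, adjusted p = 1.9e-06 and 0.00048), and rose by 1.55 with sh1319 in MIA PaCa-2 (2.2e-06). SERPINA5, the protein C inhibitor, rose by 1.26 and fell by 0.57 in Capan-1 (limma, adjusted p = 0.00014 and 0.022). The falls of SERPINA3 and SERPINA5 with sh1319 in Capan-1 were not called with median scaling (limma, adjusted p = 0.088 and 0.49), and that of SERPINA5 was also lost without the first sh1319 or the second shCtrl array (0.15 and 0.18).

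SPINT1, which inhibits matriptase and related proteases, rose in Capan-1 with both hairpins by probe 5860767 (1.67 and 0.77, limma, adjusted p = 5.2e-05 and 0.011), but with sh1319 not without the first shCtrl or second sh1319 array (0.1 and 0.096). Its other probe, 1710468, had mean log2 levels of 5.32 with shCtrl, 6.40 with sh1209 and 5.75 with sh1319 in Capan-1. That probe was called with sh1209 and not with sh1319. SPINK5, the source of LEKTI, was detected in all 6 Capan-1 arrays and in no MIA PaCa-2 array, at 100.8 and 97.0 with shCtrl and 124.0 and 120.2 with sh1319, and was not called with either hairpin.

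Of 4 listed protease-activated receptors, which kallikreins can cut, 3 were tested, with 5 probes. In MIA PaCa-2 1 probe rose and 1 fell with each hairpin (medians 0.00 and 0.02), where 18.0% and 24.3% of all tested probes were called. In Capan-1 0 rose and 3 fell with each (medians -0.51 and -0.71), where 16.8% and 13.7% were called. These 3 were 2 probes of F2RL1 and 1 of F2R. F2RL1, which encodes PAR2, the receptor most often tied to kallikreins, was detected in Capan-1 alone. Its probe 5810047 read 351.7 and 360.3 with shCtrl, 266.5 and 378.1 with sh1209, and 215.2 and 296.4 with sh1319, and it fell (log2 change -0.51 and -1.02, limma, adjusted p = 0.019 and 0.00044). The second F2RL1 probe also fell (-0.52 and -0.76, limma, adjusted p = 0.0092 and 0.0012). With median scaling 3 of these 4 F2RL1 falls were not called, the exception being probe 5810047 with sh1319. With sh1209 probe 5810047 lost its call without either shCtrl array or the first sh1209 array, and probe 1050068 without the second shCtrl or second sh1209 array (adjusted p from 0.059 to 0.14).

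F2R, which encodes PAR1, fell in both lines by probe 4570398, with log2 changes of -2.26 and -2.72 in MIA PaCa-2 (limma, adjusted p = 2.2e-06 and 3.2e-07) and of -1.91 and -0.71 in Capan-1 (1.2e-05 and 0.013). The other F2R probe, 7160743, read 10505.3 to 16229.0 and was not called in these comparisons, so the probes disagree. The fall of probe 4570398 with sh1319 in Capan-1 was not called with median scaling or without the first shCtrl or first sh1319 array (limma, adjusted p = 0.31, 0.11 and 0.11). F2RL2, which encodes PAR3, rose in MIA PaCa-2 from undetected with shCtrl to 130.4 and 167.6 with sh1209 and 131.4 and 166.6 with sh1319, at least 3.34- and 2.93-fold higher. It was detected in these 4 arrays only and passed the filter through them, so its direction was set by the filter.

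Listed substrates had 7 of 13 genes tested, with 13 probes. In MIA PaCa-2, 4 rose and 1 fell with sh1209, and 6 rose and 1 fell with sh1319 (medians 0.01 and 0.23). Of all tested probes, 18.0% and 24.3% were called there. In Capan-1, 8 rose and 0 fell with sh1209, and 2 rose and 0 fell with sh1319 (medians 0.69 and 0.16). Of all tested probes, 16.8% and 13.7% were called in that line. IGFBP3, a carrier of insulin-like growth factors, rose in Capan-1 by 2.05 and 1.85 (probe 6590132, limma, adjusted p = 3e-05 and 0.00013). APP, the amyloid precursor, rose in MIA PaCa-2 by 0.72 and 1.03 (probe 3370577, limma, adjusted p = 0.0011 and 5.2e-05). PLAUR, the urokinase receptor, rose with sh1209 in Capan-1 by all 3 of its probes, by up to 1.19 (limma, adjusted p = 0.0015), and CDH1 by 0.63 (0.0095), a call that was lost without the second shCtrl or second sh1209 array (0.085 and 0.069).

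**Figure D5:**
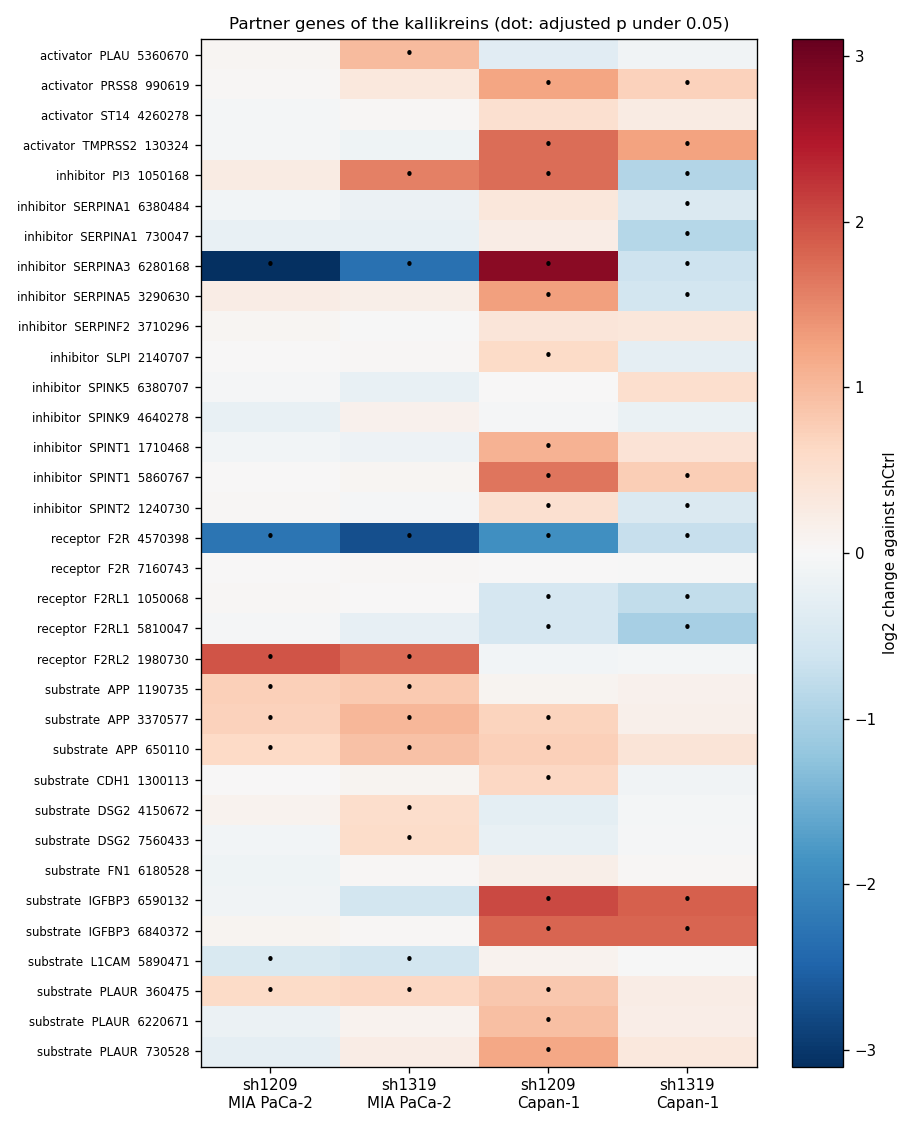
Log2 change against shCtrl for every tested probe of listed activators, inhibitors, receptors and substrates of kallikreins, 1 row per probe and 1 column per hairpin and cell line (2 arrays per group); red is higher, blue lower, and a dot marks an adjusted p under 0.05 with limma. SERPINA3 ran from -3.08 to 2.79 across the columns, and the receptor F2R (probe 4570398) was blue in all 4.

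Among the epithelial markers, KRT19 was lower with both FAK hairpins in MIA PaCa-2, while most of the marker probes were not called. KRT19, a ductal keratin, read 128.2 and 125.5 with shCtrl, 93.5 and 92.4 with sh1209, and 99.0 and 90.0 with sh1319, and fell (log2 change -1.44 and -1.47, limma, adjusted p = 0.00025 and 0.00013). Over the 12 epithelial marker probes, 0 rose and 1 fell with sh1209, and 1 rose and 3 fell with sh1319. Of all tested probes, 18.0% and 24.3% were called in either direction. Their summed normalized signal was 2066 to 2125 with shCtrl, 1576 to 1680 with sh1209 and 1076 to 1188 with sh1319. The sum adds unlogged levels, so in MIA PaCa-2 it mostly follows KRT8, the brightest of these probes (log2 10.67, 10.25 and 9.58). It does not show a fall of the markers at large. In Capan-1 the sums were 24010 to 24532, 27278 to 28988 and 21236 to 23682. PRSS1, trypsinogen of acinar cells, was detected in all 6 Capan-1 arrays and in no MIA PaCa-2 array, and rose by 1.51 with sh1209 and fell by 0.74 with sh1319 (limma, adjusted p = 2.1e-05 and 0.0041). The part of these markers in the kallikrein values was not tested.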

How the data were processed

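RNA (500 ng) of 12 samples was run on 1 Illumina HumanHT-12 v4 chip, 2 arrays for each of 6 groups. The authors deposited non-normalized probe intensities, together with a detection p-value for every probe and array, exported from GenomeStudio 2011.1 (per the submitters' processing notes). The table holds 47320 rows, of which 92 were controls, and 0 columns of per-sample values were left unused.

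Background was corrected from the detection p-values (nec in limma, normexp with an offset of 16), and the arrays were quantile-normalized and put on the log2 scale. The offset understates changes of dim probes. The 24207 probes that 2 or more arrays detected (p under 0.05) entered limma 3.58.1 (R 4.3.3), with a mean for each of the 6 groups, which leaves 6 residual degrees of freedom. Benjamini-Hochberg adjustment ran over all of them. Two-sided 95% intervals came from the same fit. Tables and plots used pandas 2.3.3, numpy 2.4.6 and matplotlib 3.10.9. A group not detected on any of its arrays was set at the higher of its own signal and the lowest detected signal of each array, which gives the folds written "at least". They hold for this background correction and offset only. The number of arrays limits the precision. Between 16259 and 19814 probes were detected per array.

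The members, the lists of activators, inhibitors, receptors, substrates and cell markers, and the tests were chosen with earlier results of these data known. Named are every member probe, PTK2, the other KLK genes detected on 2 or more arrays, up to 4 genes per list with the largest change among those called, 3 neighbours on each side of the cluster and the 5 genes most like KLK6 and KLK10; other genes named as not called or as markers were added after their values were seen. Gene order and promoter windows came from RefSeq.

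On simulated data made like sh1209 against shCtrl in MIA PaCa-2 (24207 probes, 200 changed), the fit recovered 95% of the log2 changes of 1 and 100% of those of 2, and 5.8% of calls were false. Alternatives were no background correction, an offset of 50, median scaling, no filter, a stricter filter (detection p under 0.01), the replicate number as a block, each cell line fitted alone, the methods' t-test and leaving out each array.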

Additional observations from a re-analysis of the deposited data

Results flagged for a closer look

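The response to the FAK hairpins (mean of both, log2) is listed here for 3 kallikrein probes whose difference between the cell lines passed the call threshold of the fit, as 14.4% of all tested probes did. Capan-1 minus MIA PaCa-2 was 5.94 for KLK6 2970154, 0.85 for KLK7 6020139 and -0.59 for KLK10 5960192. The genes were chosen with this response known, so the values are a description and support nothing. KLK7 was not detected in Capan-1 and KLK10 5960192 was not detected in MIA PaCa-2, so for these the response in that line is a difference between undetected groups. The fall of PTK2 itself was smaller in Capan-1 (1.17 in the same comparison, probe 450253).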

How the results depend on the processing

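The number of member probes called depended on the processing most in Capan-1. With sh1209 (2 called) it was 1 without background correction, 0 with median scaling, 1 with no filter and 1 with the replicate block. With sh1319 (1 called) it was 2 without background correction, 3 with an offset of 50 and 2 with the stricter filter. In MIA PaCa-2 (2 called with each hairpin) the stricter filter, which tested 18641 probes and not KLK7, left 1 and 1. Between the lines (4 called) it was 2 with an offset of 50, and KLK6 2970154 turned from 0.68 to -0.14 without background correction. The cause was not tested. By the methods' t-test, unadjusted, the count was 1 for each hairpin in MIA PaCa-2 and 1 for sh1319 against sh1209 in each line, and after Benjamini-Hochberg it was 0 in all 4 FAK hairpin comparisons. Leaving out 1 array gave 1 to 2 (sh1209) and 1 to 3 (sh1319) in MIA PaCa-2, and 0 to 2 for either hairpin in Capan-1.

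Of 67 results of other named genes in the FAK hairpin comparisons, 14 missed the threshold in at least 1 alternative and 0 reversed. These include genes chosen for their likeness to KLK6, for which this is no support.

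Median scaling moved the share of higher calls among all probes to 66.6% of 3846 (50.3% of 5887) for sh1319 in MIA PaCa-2, 81.7% of 2459 (48.4% of 4074) for sh1209 and 85.3% of 2270 (50.6% of 3322) for sh1319 in Capan-1, 65.3% of 3477 (49.4% of 5478) for sh1319 against sh1209 in MIA PaCa-2, and 58.7% of 12366 (46% of 14111) between the lines. It called 2243 probes (4365) for sh1209 in MIA PaCa-2 and 1217 (2730) for sh1319 against sh1209 in Capan-1. It moved the median of all probes by up to 0.11.

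Replicate numbers did not pair the arrays: deviations of same-numbered arrays correlated at -0.0611 to 0.16, and beyond the count given above the replicate block changed 1 other member call, that of KLK7 between the lines. Most kallikrein probes lay near background, where the arrays cannot tell low expression from none.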
